A study of Mus musculus with 15 samples.

Results

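Dendritic cells grown with GM-CSF and IL-4 (GM4 DC) were compared between 20 h and 6 h of activation with LPS and IFN-gamma, that is, over the late phase of their response. The comparison rested on the 2 arrays at 20 h and the 3 arrays at 6 h, 5 of the 15 arrays of the series, and covered all 12422 probe sets that are not array controls. All arrays held RNA from bone marrow of female NOD (non-obese diabetic) mice aged 6 to 8 weeks, a strain that develops autoimmune diabetes spontaneously. Marrow was cultured for 4 days with GM-CSF and IL-4, each at 1 ng/ml, and DC were taken from a 14.5% metrizamide density gradient. They were then cultured with LPS at 10 µg/ml and IFN-gamma at 50 ng/ml until harvest. No group was kept for 6 h or 20 h without LPS and IFN-gamma. Longer culture and longer activation therefore cannot be told apart in this comparison. The other groups shown here were GM4 DC at 0 h (3 arrays) and DC grown with GM-CSF alone (GM DC, taken from a 16% gradient), from the same strain and with the same activation, at 6 h and 20 h (2 arrays each). GM DC arrays at 0 h entered the fit, and so the estimate of spread, but were not compared. The labels of 1 of the 3 GM4 DC arrays at 0 h gave no cytokine doses and no gradient. The source names of all GM4 DC arrays, those at 0 h included, mention exposure to LPS and IFN-gamma, so that the time of 0 h rests on the titles alone, and levels at 0 h are given only for orientation. The replicates were called biological, without a statement of which animals were pooled, and density gradient fractions are enriched rather than pure.

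LPS is sensed through Toll-like receptor 4, which switches on NF-kappaB, MAP kinases and, by an interferon-beta loop, interferon-stimulated genes; IFN-gamma adds its own target genes such as the immunity-related GTPases. A dendritic cell answers in waves: cytokine and chemokine transcripts peak early, feedback regulators follow, and later the cell's surface receptors, metabolism and division programme are reset. IL-4 given during culture signals through STAT6 and is known for inducing genes of alternative activation such as Mrc1, Arg1 and Ccl17 in mouse myeloid cells.

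The deposited values were MAS5 signals, linear brightness estimates per probe set, and their trimmed mean was 150.1 on each array. Between 31.4% and 34.8% of probe sets gave a signal under 16 on the 5 arrays, and Pearson correlations of log2 values were 0.975 to 0.988 among the arrays at 6 h and 0.984 between those at 20 h. The 3′/5′ ratio of beta-actin, a measure of RNA integrity, was 1.13, 1.18 and 1.17 at 6 h, against 1.30 and 1.35 at 20 h, without overlap, whereas that of Gapdh overlapped (1.03, 1.12 and 1.48 against 1.06 and 1.16). With a covariate built from both ratios 1627 probe sets were called, against 1452 without it, and the part of RNA integrity in single genes was not tested. Of the dendritic cell identity genes, Cd74 stood at 4764 to 6607, Ccr7 at 1541 to 3632 and Itgax at 208.1 to 625 on these 5 arrays. The T cell gene Cd3e read 9.24 to 15.5 and the B cell gene Cd79a 41.6 to 69 on these arrays. Other T and NK cell genes lay lower or higher than Cd3e, such as Cd8b1 at 1.23 to 3.75, Cd4 at 61.9 to 109 and Gzmb at 53.5 to 135. Ighm, an immunoglobulin constant region of B cells, fell from 110, 157 and 172 to 66.6 and 57.4 (-1.04, adjusted p = 0.0063). Its call was lost without the second array at 20 h (-0.95) and when the mean of its probe sets was taken (-0.0444). Levels of different probe sets are on different scales, so these values do not measure purity.

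Between 6 h and 20 h, 1452 of 12422 probe sets (11.7%) changed at an adjusted p below 0.05 in limma's moderated test on log2(signal + 16). Of these, 706 (5.68%) were higher and 746 (6.01%) were lower at 20 h, and the median difference of all probe sets was 0.03 on the log2 scale. The 2 arrays at 20 h did not overlap the 3 at 6 h for any called probe set, but the arrays did not overlap for 39.3% of all probe sets either. A difference of more than 1 on the log2 scale was reached by 298 of the higher and 317 of the lower probe sets. Taking the brightest probe set of each gene, 1148 of 8251 genes (13.9%) were called, 570 higher (6.91%) and 578 lower (7.01%). The number of called probe sets fell to 566 without the second array at 20 h, to 856 without the first, and to 951 without the second array at 6 h, and was 1336 and 1013 without the first and the third.

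**Figure D1:**
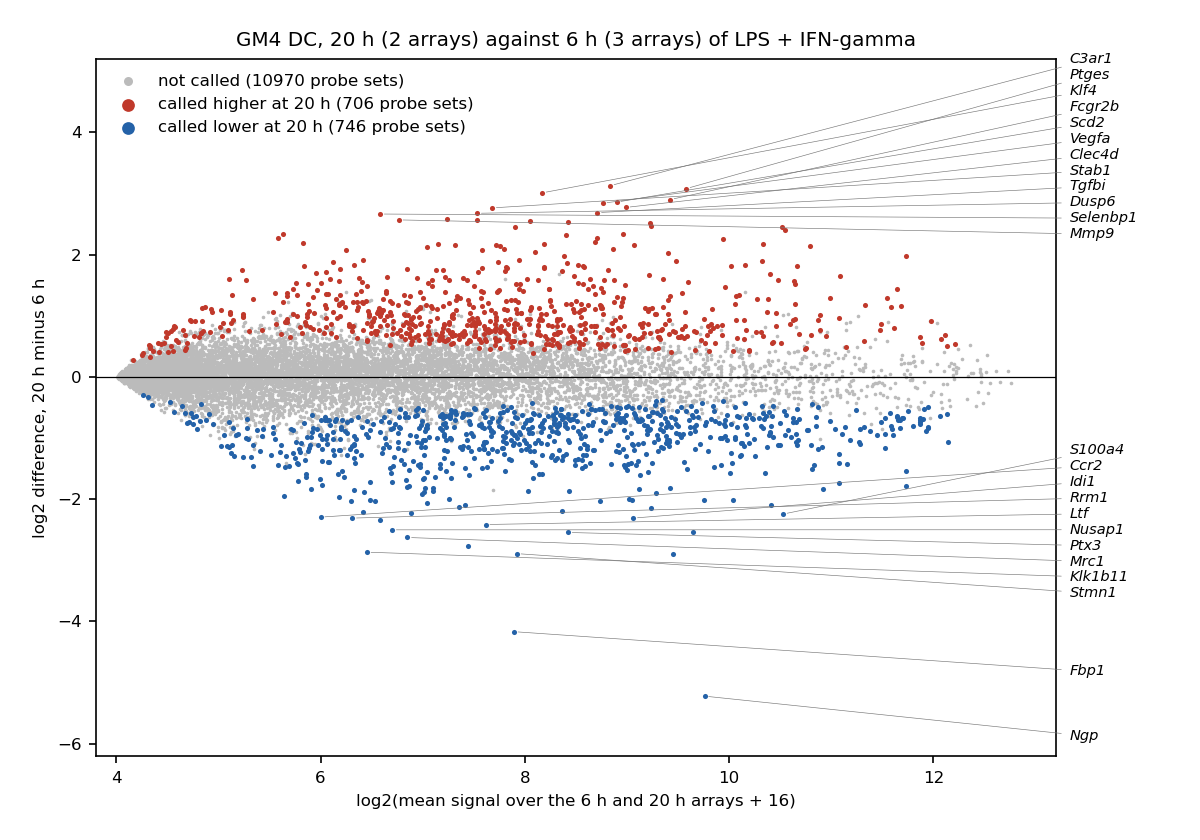
Each point is a probe set, with the log2 mean signal (+ 16) over the 5 arrays on the x axis and the log2 difference, 20 h minus 6 h, on the y axis; the 12 largest called increases and decreases of named genes are labelled. The 706 red and 746 blue points were called, and Ngp (-5.22) and Fbp1 (-4.17) lie apart from the other decreases with the offset of 16.

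The 12 largest increases were led by C3ar1, the receptor for the complement fragment C3a. Its signal was 89.1, 127 and 74.9 at 6 h, against 888 and 1022 at 20 h, a difference of 3.12 ± 0.22 (SE) on the log2 scale (adjusted p = 2.47e-06). At 0 h it had been 236 to 370, so that the 6 h arrays were the lowest of the 3 times and the 20 h arrays the highest. Klf4, a zinc-finger transcription factor of monocyte and macrophage differentiation, followed the same order: 141 to 205 at 0 h, 59.2, 54.8 and 62.7 at 6 h, then 512 and 671 at 20 h. Stab1 (stabilin 1, a scavenger receptor of alternatively activated macrophages) rose from 43.8, 57.6 and 37.7 to 404 and 403, and Dusp6, the phosphatase that inactivates ERK, from 34.7, 55.2 and 38.8 to 313 and 405. Scd2, a stearoyl-CoA desaturase, was the one case of a deep early drop only partly made good: 1499 to 1913 at 0 h, 101, 128 and 135 at 6 h, then 1001 and 945 at 20 h.

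Ptges, the inducible synthase of prostaglandin E, read higher at each later time, from 5.53 to 23.1 at 0 h to 189, 190 and 152 at 6 h and to 1541 and 1671 at 20 h (late difference 3.08 ± 0.32, adjusted p = 5.13e-05). Clec4d, an activating C-type lectin that binds mycobacterial glycolipid, stood at 105, 198 and 118 at 6 h, but 939 and 1101 on the 20 h arrays. For these genes, as for all 12, non-overlap of the arrays between the times was a condition of being named. Fcgr2b, the inhibitory Fc receptor for IgG, rose from 370, 138 and 92.5 to 1440 and 1307, and Vegfa, the endothelial growth factor, from 284, 79.1 and 43.0 to 962 and 726. In both genes the first array at 6 h was the brightest of its group, yet below both arrays at 20 h. Tgfbi, a matrix protein induced by TGF-beta, Selenbp1, a methanethiol oxidase, and the gelatinase Mmp9 completed the increases with differences of 2.69, 2.66 and 2.57. All 12 increases kept their call under each of the 16 alternatives for the late change. That concerns the call and not the size of the difference, which for Selenbp1, as given below, depended on the offset.

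Among the decreases, Ngp, a granule protein of neutrophil precursors, had the largest difference with the offset of 16, whereas with an offset of 1 that of Fbp1 was larger (-5.96 for Ngp and -6.28 for Fbp1). Ngp read 1425, 1204 and 1576 at 6 h, against 28.8 and 15.9 at 20 h, so that the difference was -5.22 ± 0.29 (adjusted p = 6.33e-07). Lactoferrin (Ltf), a protein of secondary neutrophil granules, fell from 212, 274 and 339 to 33.5 and 42.3, having been 456 to 1059 at 0 h. Fbp1, the gluconeogenic fructose bisphosphatase, was 626, 236 and 239 at 6 h and only 3.02 and 3.48 at 20 h (-4.17 ± 0.46, adjusted p = 7.72e-05). At 20 h it lay at the lower end of the scale, where the size of the difference depends on the offset: it was -6.28 with an offset of 1 and -2.56 with 64. The same holds for Klk1b11, a kallikrein of a family of close copies that probes may not separate (195, 85.6 and 75.2 against 1.19 and 1.10), and for Ccr2, the receptor for Ccl2 (78.7, 84.1 and 71.1 against 4.05 and 2.25), whose differences of -2.87 and -2.29 became -5.67 and -4.28 with an offset of 1. Signals near or under 16 at 1 of the times made other sizes depend on the offset too. With offsets of 1 and 64, Mrc1 gave -3.62 and -1.54, Nusap1 -3.58 and -1.42 and Rrm1 -3.64 and -1.20. Among the increases Selenbp1 gave 3.79 and 1.58. None of these 4 calls was lost at either offset.

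Mrc1, the macrophage mannose receptor, read lower at each later time, from 316 to 386 at 0 h to 151, 191 and 132 and then to 10.4 and 13.3. Ptx3, a soluble pattern recognition receptor, was the one of the 12 whose level at 6 h was above that at 0 h by more than 2 on the log2 scale (2.83): it went from 33.6 to 125 at 0 h to 455, 540 and 497 at 6 h and back to 72.6 and 70.9. Idi1, the isomerase of the mevalonate pathway, read 793, 696 and 812 against 179 and 111. S100a4, a calcium-binding protein of motile cells, read 1682, 1980 and 2779 against 430 and 432. Stmn1 (stathmin, a microtubule destabiliser), Nusap1 (a spindle protein) and Rrm1 (the large subunit of ribonucleotide reductase) fell by 2.89, 2.50 and 2.31. Each of the latter genes had 1 further probe set, which was not called. Over the alternatives, the mean of a gene's probe sets included, their smallest differences were -1.45, -1.42 and -0.96. Without the second array at 20 h Nusap1 was no longer called (-2.27), whereas the other 11 decreases kept their call under all 16 alternatives.

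**Figure D2:**
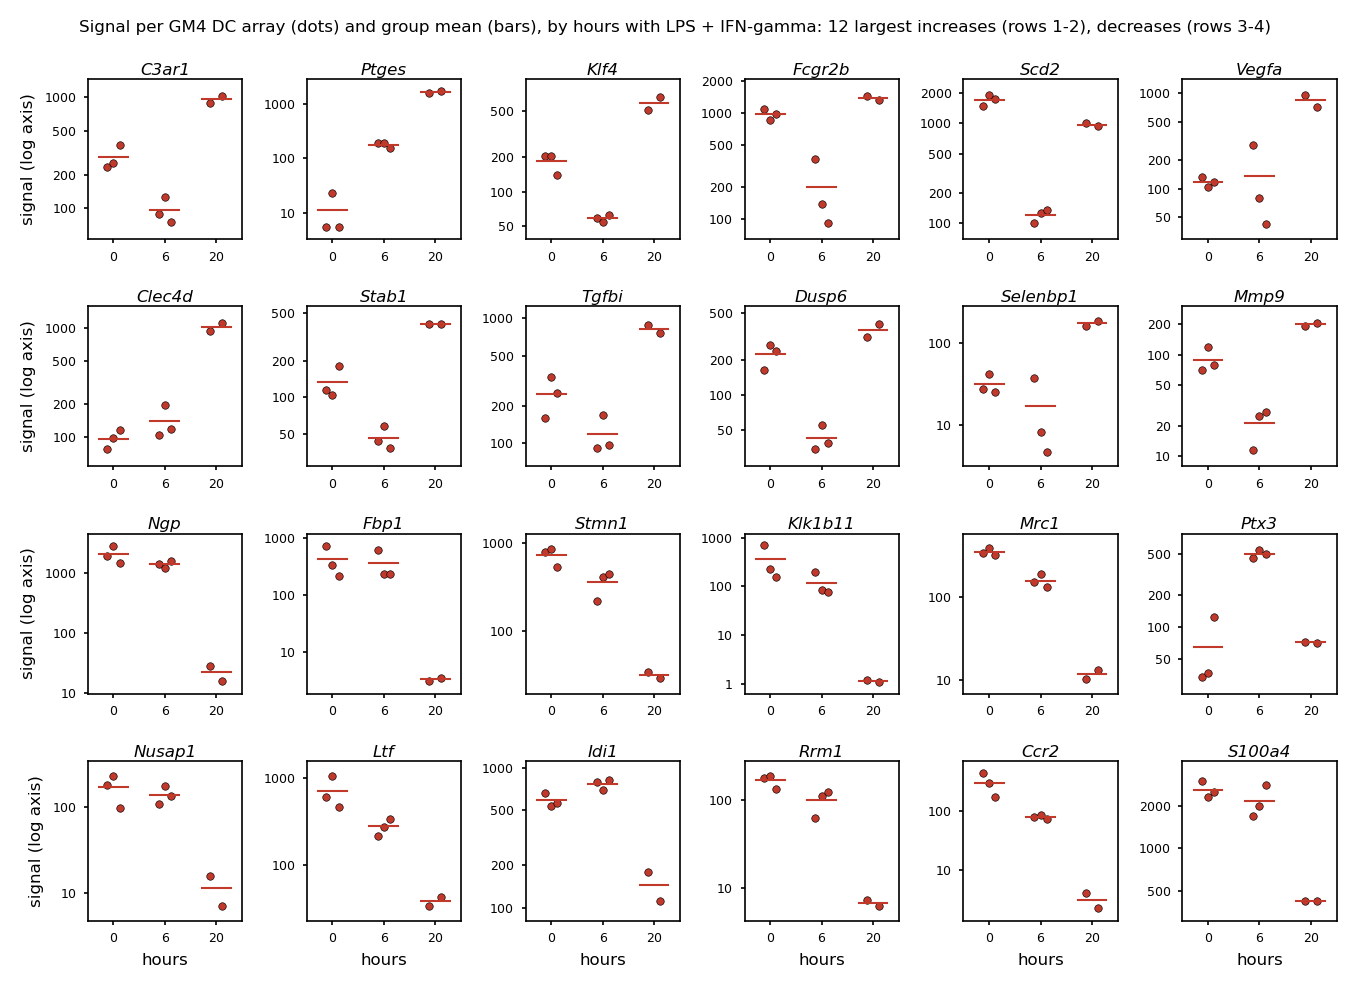
MAS5 signal on a log axis in each GM4 DC array at 0, 6 and 20 h of LPS and IFN-gamma; dots are arrays and bars are group means of 3, 3 and 2 arrays. Upper 2 rows: the 12 largest increases, all with their lowest mean at 6 h except Ptges, Vegfa and Clec4d. Lower 2 rows: the 12 largest decreases, of which Ngp falls from a mean of 1402 to 22.3.

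Among inflammatory cytokines, 3 of 18 measured genes changed (16.7%), a share near the 13.9% of all genes. Il1a went upward and Il12b and Ebi3 downward, and the list median was -0.08 beside 0.03 for all genes. The counts of this and every list below stand beside 6.91% of all genes called higher and 7.01% called lower. Il1a, which encodes interleukin-1 alpha, read 796, 820 and 722 at 6 h, against 2187 and 2532 at 20 h (1.58 ± 0.17, adjusted p = 7.16e-05). Both arrays at 20 h exceeded those at 6 h by a wide margin. Il12b, the p40 chain shared by interleukins 12 and 23, fell from 2301, 1267 and 935 to 349 and 318 (-2.02 ± 0.34, adjusted p = 0.00154), and Ebi3, the partner chain of interleukins 27 and 35, from 1896, 1217 and 1848 to 830 and 866 (-0.92). The call of Ebi3 was lost when the mean of its probe sets was taken (-0.62), and with the arrays at 20 h left out in turn 3 to 5 genes of the list were called.

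The remaining early cytokines did not pass the test. Il1b stood at 2237, 1402 and 1539 at 6 h, but 2954 and 3413 on the 20 h arrays, without overlap (0.90 ± 0.28, adjusted p = 0.0534). It passed under 8 of 16 alternatives. Tnf read 780, 773 and 887 against 476 and 791, with overlap, and Il6 read 3232, 3210 and 3417 against 2228 and 2121, without overlap (-0.59, adjusted p = 0.256). Il12a, the p35 partner of Il12b, read 44.2, 30.4 and 20.2 against 42.0 and 36.7, so that only the p40 chain of interleukin 12 passed the test; a difference between the chains was not tested. Il10 (58.5, 49.7 and 37.7 against 39.96 and 23.83) and the receptor antagonist Il1rn (4637, 3568 and 3554 against 3753 and 3568) overlapped between the times. Csf3, the neutrophil growth factor, read 126, 110 and 118 against 145 and 262 (0.66, adjusted p = 0.127).

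Of 14 CC chemokines, 4 fell and none rose, with a median of -0.21. Ccl17, a ligand of Ccr4 that IL-4 induces, fell from 4603, 3907 and 5734 to 1356 and 1327 (-1.79 ± 0.24, adjusted p = 0.000268), having been 5376 to 6819 at 0 h. Ccl4, a chemokine that attracts monocytes and T cells, fell from 726, 775 and 824 to 391 and 362, and Ccl9 from 4653, 3978 and 5649 to 2696 and 2642. Ccl22, which shares the receptor of Ccl17, read 6384, 5336 and 7399 against 4806 and 4612 and was not called (-0.42, adjusted p = 0.459). Ccl6 was called narrowly (-1.02, adjusted p = 0.0481) and was lost without any 1 of the 5 arrays. Without the second array at 20 h Ccl17 was the 1 CC chemokine still called, Ccl4 and Ccl9 reading -0.96 and -0.80. The monocyte attractants did not pass and differed in direction. Ccl2 read 1686, 2590 and 2435 against 4088 and 4173 (0.90, adjusted p = 0.0823), and Ccl7 243, 818 and 556 against 925 and 856. Ccl12 read 174, 335 and 147 against 203 and 154, with overlap (-0.20, adjusted p = 0.834). Ccl5 (6226, 4684 and 5834 against 5876 and 5598) and Ccl3 (727, 1116 and 1183 against 957 and 1235) overlapped.

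Of 10 CXC chemokines, 2 rose and 1 fell. Cxcl5, a neutrophil attractant, read 51.7, 52.6 and 63.3 at 6 h, against 125 and 292 at 20 h (1.54 ± 0.34, adjusted p = 0.00888), the arrays at 20 h differing from each other by more than those at 6 h, and its call was lost without the second of them (0.98). Cxcl14, a chemokine of resting tissues, rose from 32.7, 35.4 and 27.1 to 110 and 138. Cxcl9, an IFN-gamma-induced T cell attractant, fell from 2479, 2397 and 2307 to 1582 and 1312 (-0.73 ± 0.15, adjusted p = 0.00484), and was not called without the second array at 20 h (-0.59), whereas Cxcl10, a ligand of the same receptor, read 802, 1486 and 963 against 1215 and 1166, with overlap. Cxcl1 (804, 923 and 883 against 497 and 831) and Cxcl2 (661, 1254 and 1082 against 1526 and 1931) were not called (adjusted p = 0.209 and 0.0671). Of 14 chemokine receptors, 3 rose and 2 fell: Ccr1 from 100, 81.7 and 50.7 to 363 and 406, the scavenging receptor Ackr3 by 1.59 (3.63 with an offset of 1 and 0.65 with 64, its signals at 6 h being under 16) and Cxcr4 by 1.20, against falls of Ccr2 and of Ccr7, the receptor that guides DC to lymph nodes (3439, 3223 and 3632 against 2020 and 1541). Ccr7 was not called without any 1 of the 5 arrays, nor Cxcr4 without either array at 20 h (Cxcr4 0.95 and 1.44, Ccr7 -1.14 and -0.76). Of that list 3 genes were called without each of the 2 arrays at 20 h in turn, and 3 without the second or the third at 6 h.

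**Figure D3:**
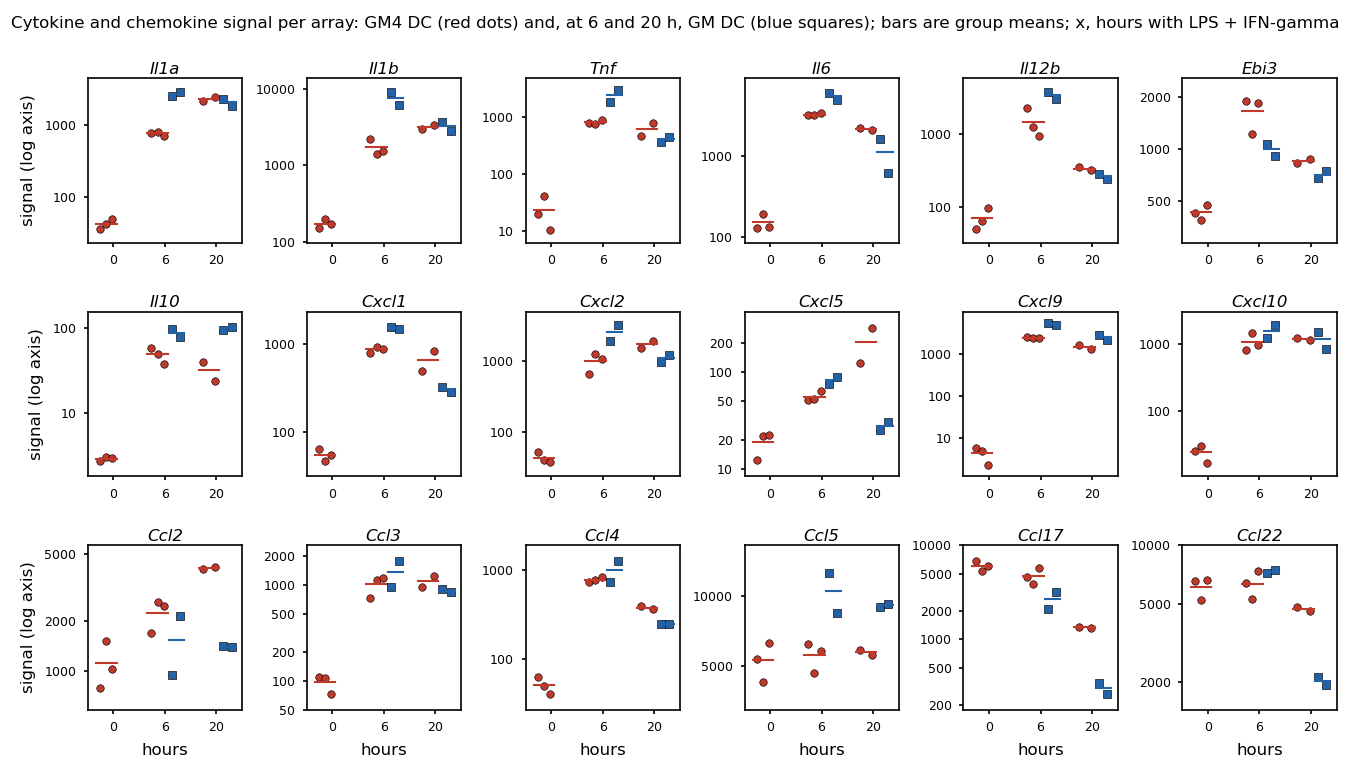
MAS5 signal on a log axis per array for 18 cytokine and chemokine genes at 0, 6 and 20 h: GM4 DC as red dots, GM DC as blue squares at 6 and 20 h only, bars as group means. In GM4 DC Il1a is highest at 20 h, Il12b falls after 6 h, and Ccl17 lies at 1356 and 1327 at 20 h.

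Of 17 measured costimulation and maturation genes, 9 fell, none rose and 8 did not pass, with a median of -0.66. Cd40, which receives T cell help, fell from 1734, 1528 and 1693 to 828 and 863 (-0.95 ± 0.13, adjusted p = 0.000268) but stayed above its 170 to 202 at 0 h. Relb, an NF-kappaB subunit required for DC maturation, fell from 1216, 851 and 882 to 427 and 301, below its 717 to 961 at 0 h. The ligands Cd70 and Tnfsf9 fell by 1.36 and 1.19, and the actin-bundling protein Fscn1 from 6445, 4522 and 6150 to 2856 and 2535. The B7 molecules Cd80 (554, 500 and 232 against 291 and 241) and Cd86 (2142, 1379 and 1217 against 986 and 1133) did not pass, and for Cd80 the arrays overlapped. Cd86 did pass, as lower, when the mean of its probe sets was taken (-1.06). Cd80 did so with the replicate number as a block (-0.77) and without the third array at 6 h (-0.95). Without the first array at 20 h 4 genes of the list were called, and without the second 1, Cd40 keeping its call in each case and Relb, Cd70, Tnfsf9 and Fscn1 losing it without the second (-1.16, -1.43, -1.30 and -0.98). Cd70, Tnfsf9 and Fscn1 were also lost without the first array at 20 h and without the first at 6 h. With the arrays at 6 h left out in turn, 4 to 5 genes of the list were called.

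Of 20 genes of the NF-kappaB pathway 7 fell, none rose and 13 did not pass (median -0.45). Beside Relb these were the subunit precursor Nfkb2 (986, 840 and 1046 against 545 and 523), the nuclear inhibitor-like protein Nfkbiz (760, 662 and 556 against 309 and 286), the inhibitors Nfkbib and Nfkbie, and the ubiquitin ligases Birc2 and Birc3 (-0.86 and -0.78). Rela, the main activating subunit, read 1750, 1606 and 1803 against 2159 and 2364 (0.39, adjusted p = 0.0867). Without the second array at 20 h no gene of this list was called, and without the first 5 were. Nfkbib and Nfkbie were lost without either array at 20 h. Genes of dendritic cell identity fell in 6 of 17 cases (median -0.53): Itgax, which encodes CD11c, went from 625, 424 and 494 to 208 and 216 (-1.20 ± 0.19, adjusted p = 0.00111), and Zbtb46, a transcription factor of conventional DC, from 382, 358 and 321 to 130 and 78.2. Irf4, Ly75, Fscn1 and Ccr7 were the other 4, and Itgax alone was still called without the second array at 20 h (Zbtb46 -1.34, Irf4 -0.96, Ly75 -0.78). The list held 3 called genes without the first array at 20 h, and 2 without the first at 6 h. None of 15 class II antigen presentation genes passed in limma's test, and 1 was below 0.05 in unadjusted p. With quantile normalization 1 was called, and 4 with the replicate number as a block, although the numbers were not taken as pairing. H2-Ab1 read 3372, 1841 and 1933 against 1353 and 934 (-1.02, adjusted p = 0.113).

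Of 25 type I interferon-stimulated genes, 6 rose, 4 fell and 15 did not pass (median -0.03). Cmpk2, a mitochondrial nucleotide kinase, rose from 368, 740 and 498 to 2391 and 2359 (2.17 ± 0.30, adjusted p = 0.000427), and Ifit3, an antiviral effector, from 352, 375 and 308 to 1057 and 1093 (1.60). Rsad2 (viperin) read 1775, 2024 and 1825 against 4602 and 4598, although its call was lost without any 1 of the 5 arrays. In the other direction Ifih1, the cytosolic RNA sensor MDA5, fell from 1823, 1780 and 1859 to 821 and 841 (-1.12 ± 0.17, adjusted p = 0.000824), and Ifi35 from 926, 1031 and 1376 to 592 and 500. Without the first array at 20 h 4 genes of the list were called and without the second 3, Ifi35 being among the losses (-0.87). With the second and the third array at 6 h left out, 5 and 6 were called.

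Of 8 interferon-gamma GTPases, which attack vacuoles holding intracellular pathogens, 3 rose and none fell, with a median of 0.61. Igtp rose from 699, 900 and 796 to 2854 and 2790 (1.81 ± 0.21, adjusted p = 9.89e-05) and Irgm2 from 730, 745 and 843 to 1509 and 1451 (0.93 ± 0.18, adjusted p = 0.0037). Iigp1 rose from 941, 722 and 391 to 1898 and 1431 and lost its call without either array at 20 h (1.13 and 1.54). Gbp2 was not called (0.25, adjusted p = 0.315). In a list of IRF, STAT and JAK genes that also held interferon receptor chains, 2 of 20 rose and 2 fell. Ifnar2 rose by 1.13 and Ifngr1 by 0.71, receptor chains of type I interferon and IFN-gamma. Stat5a, which transmits GM-CSF signals, fell from 1391, 1116 and 1165 to 421 and 433, and Irf4 by 1.12. Ifnar2 was not called without the first array at 20 h (0.87), nor Ifngr1 and Irf4 without either array at 20 h. The IFN-gamma-induced factor Irf1 read 2212, 1801 and 1997 against 2598 and 2529 without being called (0.36, adjusted p = 0.0982).

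Promoters of 4 of the interferon genes that rose and of Ptx3, which fell, are printed to show the elements these pathways are known to use, 250 bases before to 50 after the start (RefSeq, GRCm38.p6). Capitals mark matches, on either strand, to GAAANNGAAA, the core of the interferon-stimulated response element, in the first 4, and to the NF-kappaB consensus in Ptx3.
Igtp, chr11:58199306-58199605, plus strand: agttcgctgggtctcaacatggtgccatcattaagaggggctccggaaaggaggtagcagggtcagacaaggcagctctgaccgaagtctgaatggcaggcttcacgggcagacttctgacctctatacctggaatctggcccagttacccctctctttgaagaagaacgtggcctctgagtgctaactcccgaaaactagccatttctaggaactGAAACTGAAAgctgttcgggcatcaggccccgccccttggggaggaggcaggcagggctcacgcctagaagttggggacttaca
Irgm2, chr11:58214727-58215026, plus strand: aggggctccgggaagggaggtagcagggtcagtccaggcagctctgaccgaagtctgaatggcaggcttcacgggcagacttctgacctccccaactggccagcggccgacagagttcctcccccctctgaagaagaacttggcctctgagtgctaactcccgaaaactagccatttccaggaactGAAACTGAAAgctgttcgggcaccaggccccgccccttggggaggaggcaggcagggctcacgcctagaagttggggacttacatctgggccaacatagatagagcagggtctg
Ifit3, chr19:34583279-34583578, plus strand: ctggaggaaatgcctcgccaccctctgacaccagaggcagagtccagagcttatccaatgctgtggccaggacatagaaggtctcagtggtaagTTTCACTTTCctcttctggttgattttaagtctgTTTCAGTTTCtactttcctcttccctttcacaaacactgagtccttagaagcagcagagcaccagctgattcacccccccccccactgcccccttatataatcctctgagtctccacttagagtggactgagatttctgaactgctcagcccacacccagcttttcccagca
Rsad2, chr12:26456403-26456702, minus strand: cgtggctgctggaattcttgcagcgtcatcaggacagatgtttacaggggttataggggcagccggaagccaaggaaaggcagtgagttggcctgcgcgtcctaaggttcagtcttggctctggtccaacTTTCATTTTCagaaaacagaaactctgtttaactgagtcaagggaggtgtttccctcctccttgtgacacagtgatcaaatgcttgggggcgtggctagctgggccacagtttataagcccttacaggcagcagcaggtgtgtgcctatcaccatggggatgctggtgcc
Ptx3, chr3:66219637-66219936, plus strand: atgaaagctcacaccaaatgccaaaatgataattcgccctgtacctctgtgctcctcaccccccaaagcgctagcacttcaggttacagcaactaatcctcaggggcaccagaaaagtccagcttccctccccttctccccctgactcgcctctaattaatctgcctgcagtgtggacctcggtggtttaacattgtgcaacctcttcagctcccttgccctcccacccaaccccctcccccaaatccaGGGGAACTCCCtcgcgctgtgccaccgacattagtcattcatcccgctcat

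The element begins 34 bases before the start in Igtp and 64 before it in Irgm2, both on chromosome 11, and the promoters share an identical run of 61 bases downstream of it. Ifit3 holds it at 156 and at 122 bases before the start and Rsad2 at 120, all on the opposite strand. In Ptx3 the matches on both strands overlap at the start. GAAANNGAAA is found in 3.44% of the 32851 promoters of the table, TTCNNNGAA (the IFN-gamma activated site) in 8.3% and the NF-kappaB consensus in 4.51%. These are shares of promoters, whereas the counts that follow are of genes with a match in any of their promoters, so the 2 are not alike. Genes on chr18 were left out of the counts by gene, but not of the shares of all promoters. Among type I interferon-stimulated genes counted with a promoter, 2 of 5 that rose held GAAANNGAAA, as did 1 of 4 that fell and 7 of 10 that were not called. Among the GTPases it was held by 2 of 2 counted that rose, Iigp1 not being counted, and 4 of 5 that were not called. TTCNNNGAA was held by 2 of 2 GTPases that rose (Igtp and Irgm2) and 1 of 5 not called, and by 1 of 5 type I interferon-stimulated genes that rose, 1 of 4 that fell and 5 of 10 not called. Of the 12 largest increases, 10 were counted with a promoter and 3 held GAAANNGAAA (Clec4d, Tgfbi and Vegfa), against 0 of 11 for the decreases. TTCNNNGAA was in none of the 21. The NF-kappaB consensus was in 1 of 10 increases (Vegfa), in 1 of 11 decreases (Ptx3) and in none of the interferon genes counted. A match is a run of letters, not a bound site.

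A list of immediate early genes held AP-1 and EGR factors and others such as Klf4 and Ier3. Of its 20 measured genes 5 rose, none fell and 15 did not pass (median 0.24). Beside Klf4 these were Fosl1, an AP-1 subunit, from 13.9, 5.30 and 4.08 to 90.3 and 91.0 (2.19 ± 0.36, adjusted p = 0.00121, or 3.55 with an offset of 1 and 1.11 with 64), Ier3, Fos and Atf3. Of 22 signalling brakes 5 rose, none fell and 17 did not pass, with a median of 0.02 beside 0.03 for all genes. Gadd45g, an activator of the stress kinase p38, rose from 328, 179 and 148 to 1040 and 908 (2.15), Zfp36l2, which destabilises AU-rich transcripts, from 125, 91.6 and 79.1 to 372 and 380 (1.80), and Dusp6, Socs1 and Dusp16 were the others. Socs1, the inhibitor of JAK kinases, read 1894, 1239 and 1291 against 2640 and 2318 (0.77), and both it and Dusp16 were lost without either array at 20 h. In each of these lists 3 genes were called without the first and 3 without the second array at 20 h, Atf3 being lost without the first (0.83), Fos without the second (1.21) and Ier3 without either. Of the signalling brakes 3 were called without the second array at 6 h. Of 10 genes of Toll-like receptor signalling 3 rose (Tlr6 by 1.25, Tirap by 1.02, or 1.93 with an offset of 1 and 0.43 with 64, and Cd14 by 0.66) and 1 fell, Ly86, part of an accessory receptor for LPS, from 299, 304 and 310 to 146 and 136. Tlr6 and Ly86 kept their calls without either array at 20 h, and Tirap and Cd14 lost theirs without each in turn. The list held 2 called genes without the second and 2 without the third array at 6 h.

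Monocyte and macrophage markers rose in 6 of 15 cases, and 1, Ccr2, fell. Adgre1, which encodes F4/80, rose from 98.3, 129 and 79.9 to 602 and 722 (2.53 ± 0.27, adjusted p = 6.47e-05), above its 36.7 to 49.7 at 0 h. Csf1r, the M-CSF receptor, rose from 241, 285 and 210 to 723 and 797, about its level at 0 h (594 to 854). Cebpb, Marco, Fcgr1 and Cd14 were the others, and the summed signal of the 15 genes went from 6735 to 8985 at 6 h to 13160 to 13280 at 20 h. Of the complement genes, C1qa read 160, 189 and 91.3 against 72.3 and 81.7. Without the first and the second array at 20 h, 5 and 4 genes of the list were called, Adgre1 and Csf1r among them; Fcgr1 and Cd14 were lost in both cases and Marco without the second (1.18).

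Neutrophil markers fell in 6 of 16 cases and rose in 2 (Mmp9 and the formyl peptide receptor Fpr2, whose call was lost without either array at 20 h). The summed signal of the list went from 8261 to 11610 at 6 h to 4035 to 4071 at 20 h. S100a8 and S100a9, the calprotectin subunits, went from 2223, 2887 and 3896 to 890 and 848 and from 1439, 1858 and 2578 to 440 and 427, and Camp, the cathelicidin, from 1220, 1046 and 1386 to 304 and 271. Lcn2, a granule protein that macrophages also make, read 956, 948 and 1044 against 1122 and 1067 and was not called. In bulk RNA, fewer cells of a type and less RNA per cell cannot be told apart. Of the other marker lists, plasmacytoid DC genes fell in 2 of 5 cases, mast cell, basophil and eosinophil genes in 2 of 15, stromal genes in 2 of 15, B cell genes in 1 of 11 and T and NK cell genes in 1 of 14, beside 7.01% of all genes. None rose in any of these, and none of 8 erythroid genes passed in limma's test (1 in unadjusted p below 0.05). Without the first and the second array at 20 h, 1 and 0 plasmacytoid DC genes were called, 0 and 0 mast cell, basophil and eosinophil genes, 1 and 1 stromal genes, 1 and 0 B cell genes and 2 and 0 T and NK cell genes. The part of these cells in the changes above was not tested.

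Of 17 C-type lectins, scavenger and Fc receptors 5 rose (Fcgr2b, Clec4d, Stab1, Marco and the high-affinity IgG receptor Fcgr1) and 3 fell: Mrc1, Olr1, a receptor for oxidised LDL (195, 133 and 101 against 36.7 and 27.1), and Ly75, a DC endocytic receptor (-1.02). Without the second array at 20 h Marco (1.18), Fcgr1 (1.21) and Ly75 (-0.78) were not called. Of 32 lysosomal genes 6 rose, 2 fell and 24 did not pass. The list held 5 called genes without the second array at 20 h. Npc1, the cholesterol exporter of lysosomes, rose from 223, 175 and 181 to 626 and 548 (1.53 ± 0.12, adjusted p = 6.62e-06), and Lipa, the acid lipase, from 251, 304 and 249 to 619 and 628. Ctse, a non-lysosomal aspartic protease, fell from 1209, 750 and 650 to 250 and 181, and the tetraspanin Cd63 by 0.98. Of the genes that IL-4 is known to induce or repress, 5 of 27 rose and 6 fell, and 7 in all were called without the second array at 20 h. The best-known alternative activation markers went in different directions: Arg1 rose from 850, 1157 and 733 to 2691 and 2488 (1.51), Mrc1 and Ccl17 fell, and Chil3 did not pass (0.08).

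Of 17 glycolysis genes 8 rose, none fell and 9 did not pass, with a median of 0.72. The glucose transporter Slc2a1 rose from 314, 196 and 122 to 1156 and 1155 (2.46 ± 0.34, adjusted p = 0.000421) and the pyruvate kinase Pkm from 2610, 2151 and 2430 to 4251 and 4118 (0.80). Pfkl, Hk2, Pdk1, Tpi1, Ldha and Pgk1 were the other 6, and for Pfkl (940, 485 and 359 against 1559 and 1544) and Hk2 (1078, 555 and 419 against 1634 and 1581) the first array at 6 h was again the brightest of its group. Without that array 11 glycolysis genes were called, against 4 without the second or the third array at 6 h and 2, Slc2a1 and Pkm, without either array at 20 h. Bnip3, a mitophagy receptor listed with the BCL-2 family (5 of 22 rose, 1 fell), had a similar profile: 305, 121 and 81.1 against 754 and 715 (2.21 ± 0.39, adjusted p = 0.00189). In that list 2 genes were called without the first and 2 without the second array at 20 h, and 2 without the second at 6 h.

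Respiratory chain subunits fell in 12 of 36 cases and rose in none (median -0.37). The complex I subunit Ndufv2 fell from 687, 815 and 779 to 375 and 337 (-1.06 ± 0.13, adjusted p = 0.00019), and the cytochrome oxidase subunit Cox5b from 892, 916 and 1038 to 485 and 500. Ndufv2 had 1 further probe set, which was not called, and its smallest difference over the alternatives was -0.58. Without the first and the second array at 20 h, 5 and 3 genes of the list were called. Of 21 sterol and fatty acid genes 5 rose, 5 fell and 11 did not pass. The list held 5 called genes without the second array at 20 h. Of the mevalonate enzymes Idi1 and Fdps (167, 178 and 181 against 40.8 and 50.0) fell, whereas Mvd rose by 1.22. The desaturases also parted, Scd2 rising and Scd1 falling from 178, 166 and 145 to 45.8 and 43.0. The cholesterol exporter Abca1 rose from 247, 154 and 132 to 967 and 902 (2.34 ± 0.23, adjusted p = 3.79e-05), and its regulator Nr1h3 by 0.73. Of 13 prostaglandin and leukotriene genes 2 rose, Ptges and the phospholipase Pla2g4a (0.96), and the receptor Ptger4 fell (-1.08), while Ptgs2 (cyclooxygenase 2) read 1230, 1314 and 1117 against 2246 and 2059 and was not called (0.81, adjusted p = 0.143). Without the second array at 20 h Mvd (1.17), Nr1h3 (0.71), Pla2g4a (1.11) and Ptger4 (-0.84) were not called.

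Of 22 stress defence genes 8 rose and none fell (median 0.52). Haem oxygenase (Hmox1) rose from 1925, 1513 and 1255 to 6069 and 6170 (1.98 ± 0.24, adjusted p = 0.000127). The sulfiredoxin Srxn1 rose from 93.9, 99.1 and 108 to 372 and 366, and both subunits of the enzyme that starts glutathione synthesis rose, Gclm from 161, 237 and 218 to 668 and 626 and Gclc from 83.7, 80.6 and 59.0 to 220 and 218. These 4 genes kept their calls under all 16 alternatives, and 5 genes of the list were called without the first and without the second array at 20 h. In the list of arginine, nitric oxide and oxidative burst genes 5 of 17 rose. Among them were the divalent metal transporter Slc11a1, from 132, 121 and 91.8 to 622 and 642 (2.32), and the oxidase subunit Ncf4 (1.37). In that list 1 fell, Gch1, which makes the cofactor of nitric oxide synthase (-0.93, and not called without either array at 20 h). Nos2 itself read 382, 234 and 150 against 526 and 541 (1.11, adjusted p = 0.0337) and lost its call under 7 of 16 alternatives. That list held 3 called genes without the second array at 20 h.

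In the endoplasmic reticulum list 4 of 22 genes rose and 2 fell, and those that rose were the factors Atf4 (770, 914 and 949 against 2682 and 2577), Ddit3 and Trib3 of the integrated stress response and the oxidase Ero1a (914, 391 and 344 against 2764 and 2809), not the chaperones: Hspa5 (BiP) was not called (0.31, adjusted p = 0.39). Sec61b, a translocon subunit, fell from 1619, 1237 and 1443 to 622 and 524.

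Genes of DNA replication and mitosis fell in 19 of 38 cases and rose in none, with a median of -0.92. Mki67, the proliferation marker Ki-67, read 110, 185 and 146 against 31.8 and 29.0 (-1.79 ± 0.31, adjusted p = 0.00192), and Top2a, a topoisomerase of dividing cells, 38.1, 65.2 and 62.1 against 1.92 and 2.40 (-1.95, but -4.12 with an offset of 1 and -0.84 with 64). Mki67 had 1 further probe set, which was not called, and its smallest difference over the alternatives was -0.85. Birc5 (survivin) fell by 1.84, Mad2l1 of the spindle checkpoint by 1.68 and the nuclease Fen1 by 1.52. All of these had been at least as bright at 0 h as at 6 h by their group means. Without the first array at 20 h 13 genes of the list were called, and without the second 11. Of 21 ribosomal protein genes 10 fell and none rose (median -0.53), Rpl8 from 2695, 2953 and 3394 to 1254 and 979 (-1.42 ± 0.16, adjusted p = 0.000105) and Rps19 from 2357, 3248 and 2993 to 1002 and 1131. Without the first array at 20 h 10 genes of the list were called, and without the second 4.

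**Figure D4:**
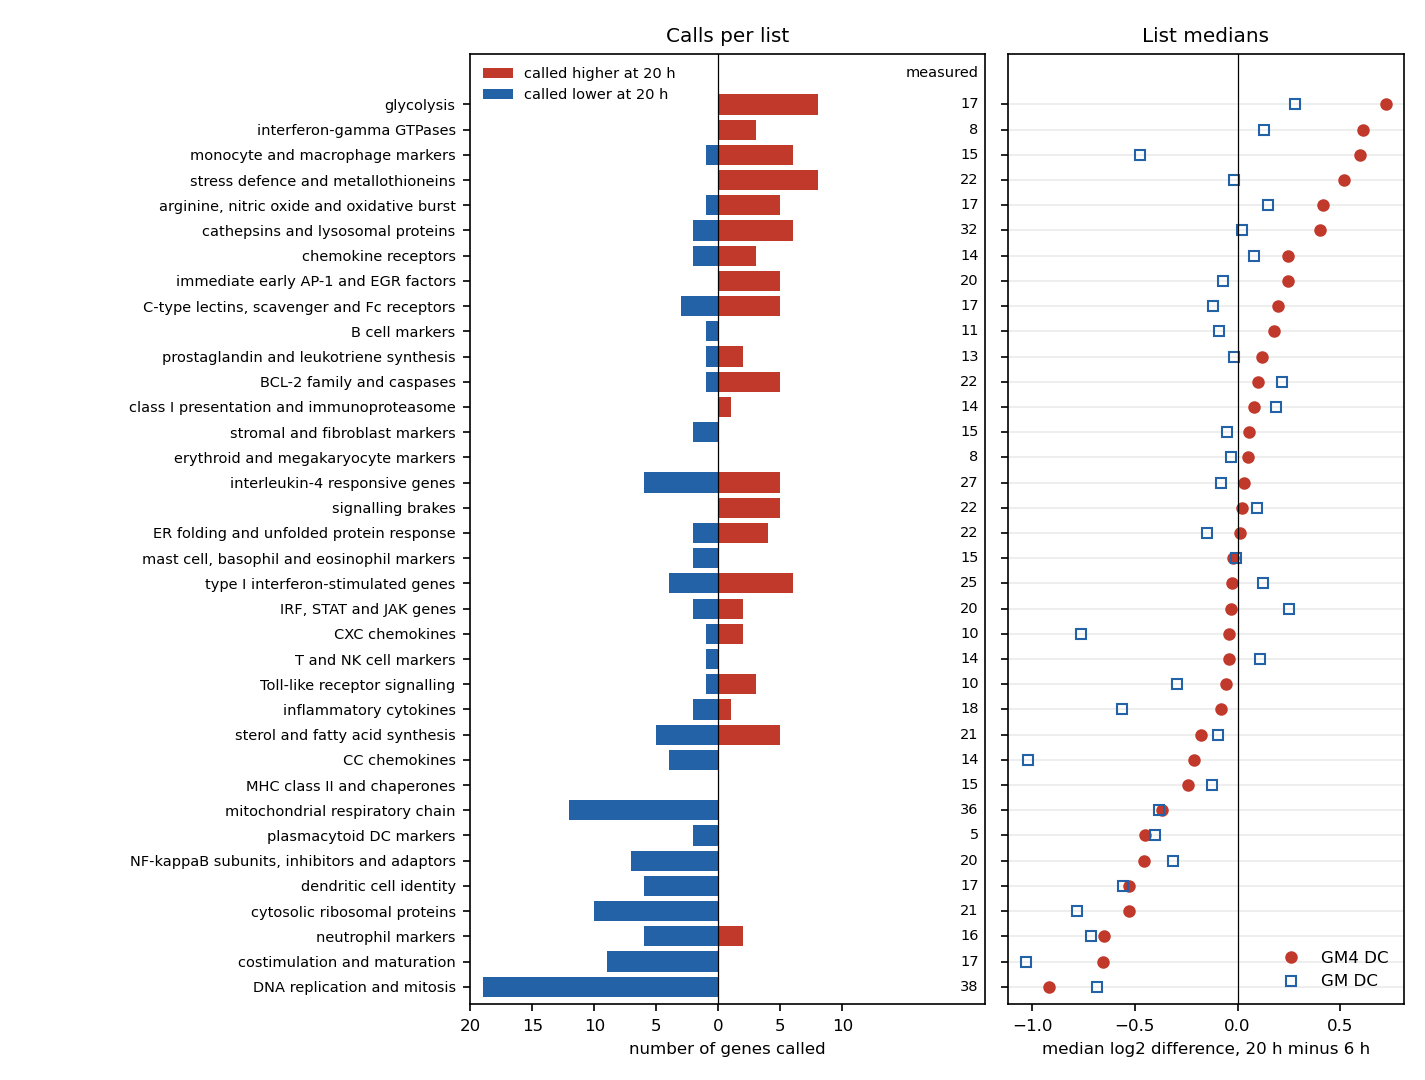
Left: genes called higher (red, to the right) and lower (blue, to the left) at 20 h against 6 h in GM4 DC for each of 36 gene lists, with the number measured. Right: the list's median log2 difference in GM4 DC (red dots) and GM DC (blue squares); glycolysis has the highest (0.72) and DNA replication and mitosis the lowest (-0.92) median in GM4 DC.

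The same interval was examined in GM DC to find where the late change differed. In GM DC 2044 of 12422 probe sets (16.5%) changed between 6 h and 20 h, 1081 (8.7%) rising and 963 (7.75%) falling. A test of the difference of late changes, GM4 DC minus GM DC, called 83 probe sets (0.668%), 53 (0.427%) with a higher and 30 (0.242%) with a lower late change in GM4 DC, or 65 of 8251 genes (0.788%). For 33 of the 65 genes the late changes had opposite signs in the DC types. The count was small and unstable: it was 8 without the second array of either DC type at 20 h, 12 without the first GM4 DC array at 20 h, 25 without the first GM DC array at 6 h and 113 without the second. RNA integrity also differed, the beta-actin 3′/5′ ratio being 1.43 to 2.26 on the GM DC arrays and 1.13 to 1.35 on the GM4 DC arrays, and its part in these differences was not tested beyond the covariate, with which 125 probe sets were called.

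Several cytokine genes were among those with a higher late change in GM4 DC, with levels at 6 h that were above those of GM4 DC in GM DC. Il1a read 2583 and 2967 in GM DC at 6 h, against 722 to 820 in GM4 DC, and 2337 and 1890 at 20 h, against 2187 and 2532. The late change was thus -0.39 in GM DC and 1.58 in GM4 DC (difference 1.97 ± 0.25, adjusted p = 0.00546), and it kept its call under all 20 alternatives. Il1b (9107 and 6140 falling to 3723 and 2829 in GM DC) and Cxcl2 (1923 and 3181 falling to 971 and 1233) showed differences of 2.10 and 1.99 but lost their calls under 10 and 11 alternatives. For the neutrophil attractants Cxcl1 and Cxcl5 the 20 h arrays parted: Cxcl1 read 329 and 288 and Cxcl5 25.5 and 30.3 in GM DC, below both GM4 DC arrays in each case (differences 1.83 and 2.71; for Cxcl5 the late change in GM4 DC was not called without the second array at 20 h, 0.98). The lectin receptor Clec4e, which detects cell damage, fell in GM DC from 436 and 488 to 103 and 95.0 and read 110, 99.0 and 67.1 against 118 and 144 in GM4 DC (2.51 ± 0.35, adjusted p = 0.0111).

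Among genes not called in GM DC was Pdpn, the mucin-like podoplanin that binds Clec1b, at 214 and 200 against 196 and 173 in GM DC but 26.6, 25.3 and 21.4 against 148 and 124 in GM4 DC (2.06 ± 0.26, adjusted p = 0.0046). Srxn1 and Gclm (252 and 180 against 274 and 218, and 437 and 369 against 421 and 464, in GM DC) likewise differed in late change, by 1.55 and 1.46, and lost their calls under 7 and 9 alternatives. In the opposite direction, Ngp fell by 5.22 in GM4 DC and by 1.58 in GM DC (648 and 1348 against 285 and 319), and Fbp1 was dim in GM DC at each time (3.02 to 15.7). Arg1 rose in GM DC by 3.16, from 369 and 368 to 3820 and 3047, more than in GM4 DC (-1.64 ± 0.28, adjusted p = 0.0222). Lsr, a lipoprotein receptor, rose from 43.8 and 13.7 to 282 and 277 in GM DC and read 60.9, 43.5 and 39.6 against 80.2 and 69.7 in GM4 DC. Of these, Ngp, Pdpn and Il1a kept their calls under all alternatives.

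**Figure D5:**
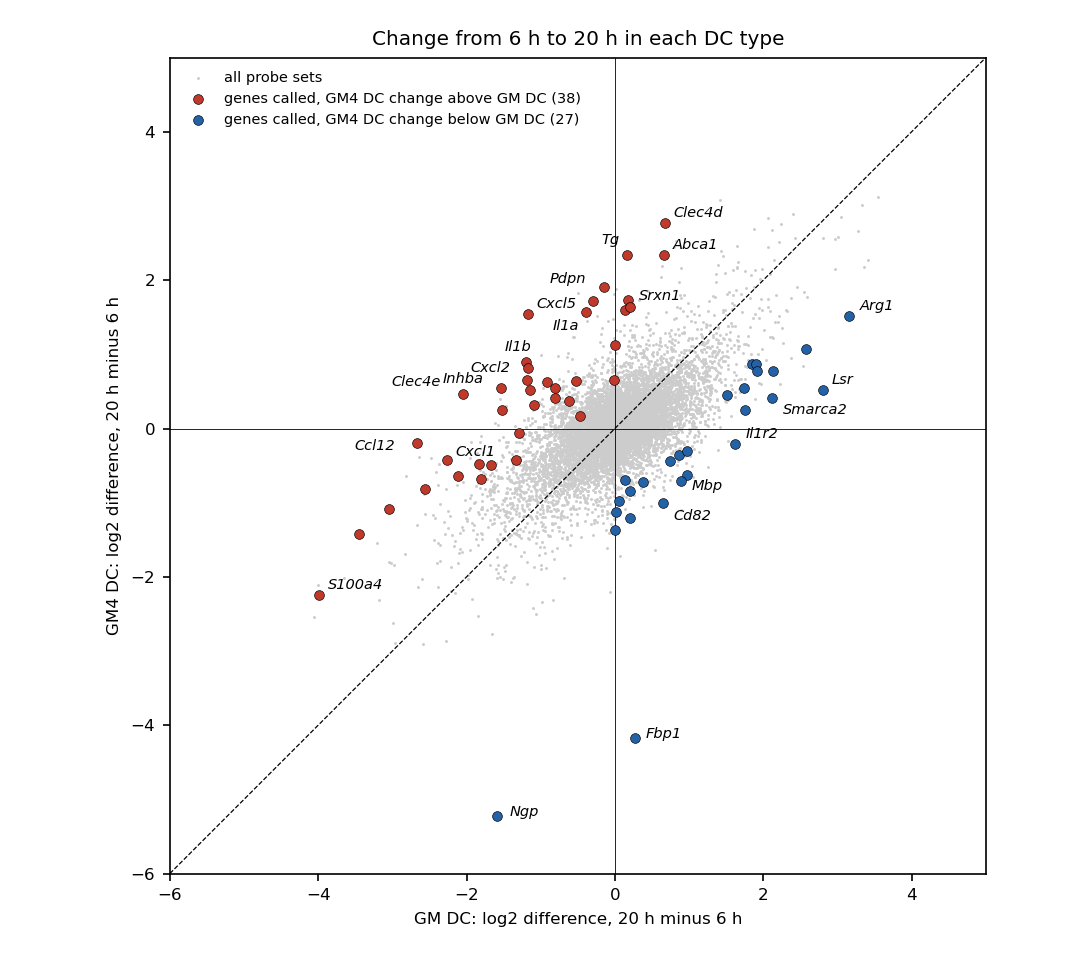
Log2 difference, 20 h minus 6 h, in GM DC (x axis) and GM4 DC (y axis) for all probe sets (grey) and the 65 genes called for a difference between the DC types (38 red, 27 blue); the dashed line marks equal change. Ngp lies at -1.58 and -5.22, and Il1a at -0.39 and 1.58.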

How the data were processed

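RNA of 15 samples was hybridised to 1 Affymetrix mouse array each. The deposited values are linear signal intensities made by the authors with MAS5, per the submitters' processing notes; its version and settings are not given in the sources used here. Of 12488 probe sets, 66 array controls were left out. Samples were grouped by their titles into 6 groups, and limma 3.58.1 (R 4.3.3) fitted the 6 group means to log2(signal + 16) over all 15 arrays, with an intensity trend and Benjamini-Hochberg adjustment over 12422 probe sets. A probe set was called at an adjusted p below 0.05, two-sided. The late change was GM4 DC at 20 h minus 6 h, and the same contrast in GM DC was subtracted to test a difference. The labels do not say that replicates came from separate animals in each case, so p-values measure the spread between these samples, which may be partly technical.

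Probe sets with 1 gene symbol (10833, against 396 with several and 1193 with none) named genes, each gene by its brightest probe set, and close paralogs may share probes. The named genes were the 12 largest called increases and decreases whose arrays did not overlap between 6 h and 20 h. In each of 36 gene lists, up to 6 called members with the largest change were named too, together with reference members that did not pass. Some genes named beyond that rule, such as Cd86, Irf1, Hspa5, Ighm and Ccl12, were chosen after their values were seen. The members and lists were chosen with earlier results of these data known. The code was tested on simulated data. Alternatives covered the offset, scaling, a filter on dim probe sets, the trend, array weights, the replicate number, RNA integrity, the arrays fitted and each array left out. The number of arrays limits the precision. Detection calls were not used here.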

Additional observations from a re-analysis of the deposited data

Results flagged for a closer look

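For 26 of the named genes the late change differed between GM4 DC and GM DC in limma's test of the difference (GM4 DC minus GM DC, log2 scale), and the values are given here without explanation.

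A higher late change in GM4 DC was found for these cytokine genes: Cxcl5 by 2.71 (adjusted p = 0.0325), Ccl12, a monocyte attractant, by 2.47 (adjusted p = 0.0426), Il1b by 2.10, Inhba, the activin A subunit, by 2.09, Cxcl2 by 1.99 (1.985 before rounding), Il1a by 1.97 (adjusted p = 0.00546), Csf3 by 1.84 (1.845 before rounding), Cxcl1 by 1.83 and Il12a by 1.77. Among receptors and surface proteins it was 2.51 for Clec4e, 2.10 for Clec4d and 2.06 for Pdpn. Tg (thyroglobulin) differed by 2.19 (adjusted p = 0.00438): it read 2.38, 2.33 and 3.54 at 6 h and 90.9 and 68.6 at 20 h in GM4 DC, and 1.36 to 5.45 in GM DC. Those values lie far below the offset of 16, so that the size rests on the offset: it was 3.68 with an offset of 1, where the call was lost (adjusted p = 0.0508), and 1.06 with 64. S100a4 differed by 1.74, with a fall of 2.24 in GM4 DC and of 3.98 in GM DC. Abca1 differed by 1.68, Srxn1 by 1.55, Gclm by 1.46 and Hspa5, which fell by 1.08 in GM DC, by 1.40.

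A lower late change in GM4 DC was found for Fbp1 (-4.44), Ngp (-3.64, adjusted p = 0.00438), Lsr (-2.29), the decoy receptor Il1r2 (-1.83), the chromatin remodeller Smarca2 (-1.70), the tetraspanin Cd82 (-1.65), Arg1 (-1.64) and Mbp (-1.61). Cd82 fell by 1.00 in GM4 DC and read 0.65 higher in GM DC. Of the 26 genes, 3 kept their call under all alternatives (Ngp, Pdpn and Il1a). Without the second array at 20 h of GM4 DC or of GM DC, 4 were called in each case.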

How the results depend on the processing

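The count of 1452 probe sets called between 6 h and 20 h rose to 2212 with array weights, stayed within 1.5 times the main count under the other scalings, offsets, filters and fits, and lay between 566 and 1336 when each of the 5 arrays was left out. With the replicate number as a block it was 1690, the count for the difference between DC types 124, and 4 class II genes were called where the main fit called none (H2-Ab1 -1.14). Same-numbered GM4 DC arrays correlated in their deviations by 0.193, 0.187 and 0.115 between 0 h and 6 h, where other numbers gave -0.132 to -0.00773, by 0.133 and 0.04 between 0 h and 20 h, and by 0.108 and 0.0576 between 6 h and 20 h. These are a hint of pairing, but not every pair exceeded 0.1 and no label gives what a number marks, so the numbers were not taken as pairing. The 83 probe sets differing between DC types became 50 with quantile normalization, 55 with median centring, 125 with the filter at the 40th percentile, 125 with the RNA integrity covariate and 23 with only the 4 groups fitted, and 8 to 113 with each array left out. Of 163 named genes 131 were called, and 81 of these under every alternative. Genes still called were 84 without the second array at 20 h, 100 without the first, and 112 to 118 without an array at 6 h. Uncalled genes near 0 changed sign. Ccl5 read -0.017 with the RNA covariate, and -0.071 to 0.133 with each array left out. Cxcl10 read -0.086 with array weights and -0.0073 to 0.431 with each array left out. Leaving out each array gave -0.079 to 0.319 for Ccl3, -0.42 to 0.132 for Ccl12 and -0.152 to 0.0392 for Il1rn. The cause of these shifts was not tested.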
